A study of Mus musculus with 32 samples.

Results

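The genes described here are 37 monocyte and macrophage genes, taken by symbol from a fixed list and read in whole mouse liver. They are 37 of the 55487 genes in the count table, all 37 were found there as single entries, and all 37 were among the 14903 genes that passed the filter on low counts. The study compared 2 genotypes, wild type (WT) and FAAH S268D, a mutant of fatty acid amide hydrolase, the enzyme that degrades N-acyl taurines and other fatty acid amides. Mice ate an HFFC diet, plain or with ARA, for 28 weeks, per the series text, whose title links arachidonoyl-taurine to fatty liver and inflammation. In the labels the diets are NASH and NASH-AA, and each group received one of them, so no group on ordinary chow was analysed here. The 4 groups were WT NASH, WT NASH-AA, FAAH S268D NASH and FAAH S268D NASH-AA, with 8 libraries each. Neither the age, sex and strain of the mice nor whether each library came from a separate animal is in the labels, so a p-value speaks only for the spread from library to library, part of which may be technical.

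Liver macrophages are of mixed origin. Resident Kupffer cells keep themselves within the sinusoids, and in steatohepatitis monocytes enter from the blood and mature into further macrophages around lipid-laden hepatocytes. Both carry the growth factor receptor CSF1R, Fc receptors that bind antibody, the beta 2 integrins and lectins that recognise microbes and dying cells. Several of these receptors have no signalling tail of their own and pass their signal through the small adaptors TYROBP and FCER1G, whose ITAM motifs recruit the kinase SYK. The phagocyte oxidase makes superoxide in the phagosome, lysozyme and MPEG1 act on engulfed microbes, and the factor PU.1 (Spi1) drives transcription of many of these genes. In RNA from whole liver, fewer cells of a type and less RNA per cell cannot be told apart.

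Levels are normalised CPM, counts scaled to library size by TMM factors, and differences are log2 fold changes ± SE from limma-voom. A change was called at a Benjamini-Hochberg adjusted p under 0.05 over the 14903 genes tested. Total counts ran from 3851628 to 34370178 with a median of 22896707, and the shallowest library was FAAH S268D NASH replicate 1, the next holding 14743255. At the median depth 1 CPM stands for 22.9 counts and in the shallowest library for 3.85. Hepatocyte markers were abundant, as the tissue label asks for: the 11 markers found summed to between 57900 and 105000 CPM. Of 11 neutrophil markers 2 passed the filter, and Ly6g, Camp and Mpo averaged 0.0278, 0.0252 and 0.104 CPM. The 32 libraries also carry library numbers, and each group has libraries numbered 1 to 16 and 17 to 32. Replicates 1 to 4 of WT NASH and of FAAH S268D NASH-AA were numbered 1 to 16. So were replicates 1 to 3 of WT NASH-AA and 1 to 5 of FAAH S268D NASH, and the later replicates were numbered 17 to 32. Whether these numbers mark a batch is not given in the sources used here.

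Single libraries stood apart from their group across the 37 genes. The library of WT NASH replicate 5 lay below the median of all 32 libraries in 37 of 37 members and was the lowest of its group in 36, where the other 7 libraries of WT NASH lay below it in 0 to 2 members each. FAAH S268D NASH replicate 4 was the lowest of its group in 29 members and FAAH S268D NASH-AA replicate 5 in 31. The summed level of the 37 genes was 616 CPM in WT NASH replicate 5 and 1096 to 1712 in the other libraries of that group. It was 718 to 996 in WT NASH-AA, 404 to 941 in FAAH S268D NASH and 390 to 743 in FAAH S268D NASH-AA. These libraries were kept in the reported fits, and values without single libraries are given beside the counts and medians that moved.

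**Figure D1:**
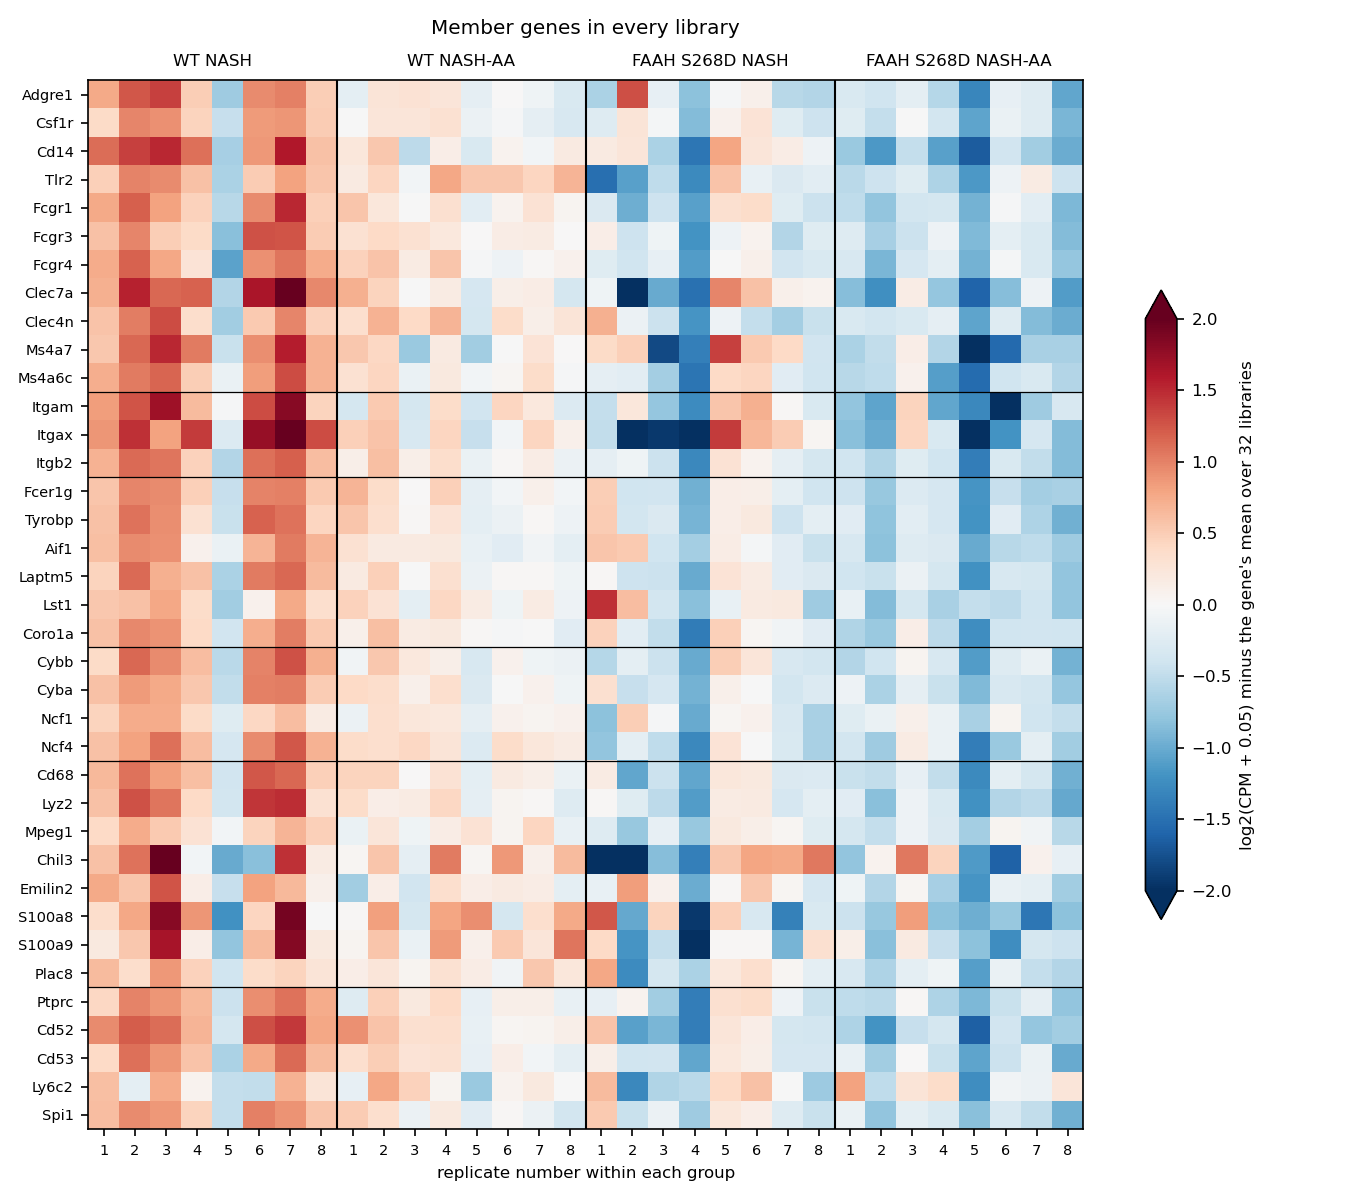
Level of each member (rows, ordered by role) in each of the 32 libraries (columns), as log2(CPM + 0.05) minus the gene's mean over all libraries, with colours ending at 2 on either side. WT NASH is high in nearly every row except in replicate 5, and replicate 4 of FAAH S268D NASH and replicate 5 of FAAH S268D NASH-AA are the lowest columns of their groups.

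Measured per kilobase of exon over all 32 libraries, Lyz2 (lysozyme) stood highest at 100.5 CPM per kb. It was followed by Mpeg1 at 48.0, Tyrobp at 34.8, Cd68 at 26.6, Fcer1g at 20.9, Cyba at 17.3, Laptm5 at 16.3 and Csf1r at 14.9. At the other end stood Chil3 at 0.443 and Ly6c2, the Ly6C antigen of classical monocytes, at 0.482 CPM per kb. Some levels are less certain because the counting program is not given. In the GENCODE annotation of GRCm38, 68.7% of the exon bases of Itgam are also exon of Gm49368 on the same strand, and 53.1% of those of Ms4a6c are exon of BE692007 on the opposite one. By shared 31-base words, Lyz2 shares 32.8% of its transcript words with Lyz1, Chil3 28.9% with Chil4 and Ly6c2 21.4% with Ly6c1, and reads could have been divided within each pair. Laptm5 and Cd52 lie on chromosome 4, the chromosome of Faah, at 14.9 and 18.1 megabases from it. Whether other alleles were carried along with the mutation there was not tested.

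The bases just before the starts of 2 members are shown with a motif of PU.1 in capitals. The motif searched was its core GAGGAA, read on both strands (TTCCTC on the other strand), in the 250 bases before each RefSeq gene start on GRCm38.p6. Cd68 codes for macrosialin, a lysosomal membrane protein of macrophages, and its window is chr11:69666171-69666420 on the minus strand. Itgam codes for the CD11b chain, and its window is chr7:128062390-128062639 on the plus strand. Both are printed 5′ to 3′ along the gene.
Cd68: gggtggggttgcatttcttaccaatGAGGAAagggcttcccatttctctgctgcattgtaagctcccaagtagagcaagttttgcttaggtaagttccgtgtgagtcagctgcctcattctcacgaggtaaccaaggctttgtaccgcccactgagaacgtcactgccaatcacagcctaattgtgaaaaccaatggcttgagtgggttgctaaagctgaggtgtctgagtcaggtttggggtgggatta
Itgam: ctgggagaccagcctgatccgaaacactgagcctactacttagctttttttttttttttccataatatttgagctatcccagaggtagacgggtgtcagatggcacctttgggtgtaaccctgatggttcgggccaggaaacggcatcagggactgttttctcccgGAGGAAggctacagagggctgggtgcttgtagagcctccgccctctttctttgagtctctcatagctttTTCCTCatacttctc
The Cd68 window holds 1 match, which begins 225 bases before the start, and the Itgam window holds 2, at 84 and 15 bases before it, the second on the other strand. The windows of Fcer1g and Cybb hold 0 matches. Of the 37 members, 27 had a window in the table and 13 of those had a match in at least 1 window, against 25.9% of all 27025 genes with a window. These 27 members held 35 windows, of which 45.7% had a match, against 23.3% of all 32851 windows. A match is a run of letters and not a site shown to bind. The members are a list of macrophage genes, and whether the motif bears on their genotype or diet differences was not tested.

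The first comparison asked how the mutation sorted with these genes on the NASH diet. On that diet 31 of 37 members were lower in FAAH S268D than in WT and 0 were higher. Among all genes tested, 6.29% were called lower and 2.89% higher in this comparison. All 37 members had a negative fold change, with a median of -0.91, while 49.9% of all genes were negative around a median of 0. The 6 members that were not called were S100a8, Ms4a7, Chil3, Emilin2, Lst1 and Ly6c2, with adjusted p between 0.0735 and 0.41. In no member did the ranges of the 8 and 8 libraries separate (0 of 37, where 0.107% of all genes separated downwards), since the lowest WT library, replicate 5 in 36 members, lay below the highest FAAH S268D library. In 34 of 37 members, 7 or 8 of the 8 FAAH S268D libraries lay below the WT median, a count that was not made over all genes.

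The number of members called changed with the fit. When the 16 libraries of these 2 groups were fitted alone, 1 of 37 was called (Cd52, adjusted p = 0.0394), with the median fold change still at -0.91 and 33 of 37 at an unadjusted p under 0.05. The share of all genes called lower was 0.302% in that fit, and the unadjusted count was not made over all genes there. With 1 weight per group, 25 were called, with 3.28% of all genes lower. In the libraries numbered 1 to 16, 27 were called at a median of -1.12, with 4.39% of all genes lower. In those numbered 17 to 32, 0 were called at a median of -0.69, with 36 of 37 negative and 0.0604% of all genes called lower. The 2 ranges are not alike. The range 17 to 32 holds fewer FAAH S268D NASH libraries (replicates 6 to 8) and the low WT NASH replicate 5. Leaving out single libraries gave between 22 members (without FAAH S268D NASH replicate 4) and 34 (without WT NASH replicate 5), where 2.46% and 10.9% of all genes were called lower.

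Among the 11 surface receptors, 10 were lower on the NASH diet and Ms4a7 was not called (-0.93 ± 0.34, adjusted p = 0.0756). Csf1r, the receptor for the macrophage growth factors CSF1 and IL-34, ran from 58.7 to 160.3 CPM in WT NASH with a median of 131.1, and from 44.5 to 98.0 with a median of 73.9 in FAAH S268D NASH. All WT libraries except replicate 5 lay above every mutant library. Csf1r fell by 0.71 ± 0.18 on the log2 scale (adjusted p = 0.0138). Clec7a, the beta-glucan receptor Dectin-1, ranged from 11.7 to 71.1 CPM around a median of 39.5 in WT NASH. In FAAH S268D NASH it ranged from 3.60 to 34.8 around 17.6, with the mutant libraries far apart. The change in Clec7a was -1.46 ± 0.36 (adjusted p = 0.0108), one of the 2 widest among the members. Cd14, which presents lipopolysaccharide to TLR4, ran from 3.38 to 16.3 CPM with a median of 11.6 in WT NASH and from 1.93 to 9.32 with a median of 6.01 in the mutant. Its change was -1.02 ± 0.27 (adjusted p = 0.0181), and 6 of 8 WT libraries lay above every mutant library.

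Adgre1, the F4/80 antigen, behaved differently in 1 library. It ran from 16.2 to 68.0 CPM in WT NASH with a median of 47.9, and from 14.98 to 64.5 with a median of 20.9 in FAAH S268D NASH. The 64.5 CPM belonged to replicate 2, while the next library of that group held 28.3. In the same replicate 2 the mutant's Clec7a was at its lowest, 3.60 CPM, and Itgax at 0.995. The change in Adgre1 was -0.83 ± 0.25 (adjusted p = 0.0319). The remaining called receptors, Tlr2 for bacterial lipopeptides, the IgG receptors Fcgr1, Fcgr3 and Fcgr4, the lectin Clec4n (Dectin-2) and Ms4a6c, changed by between -0.89 and -1.04.

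All 3 integrin chains were lower in FAAH S268D on the NASH diet. Itgax, the CD11c chain, had the widest difference of the 37 genes. It ran from 5.10 to 28.3 CPM in WT NASH with a median of 15.9 (mean 15.7 ± 6.98 SD) and from 0.995 to 16.4 with a median of 5.39 in FAAH S268D NASH (mean 6.23 ± 5.30 SD, n = 8 in each). The mutant libraries were far apart, with replicates 1 to 4 below every WT library and replicates 5 to 8 within the WT range. The change was -1.68 ± 0.42 (adjusted p = 0.0125). Itgam, the CD11b chain, ran from 3.42 to 12.3 CPM with a median of 7.31 in WT NASH and from 1.42 to 5.70 with a median of 3.15 in the mutant, a change of -1.10 ± 0.29 (adjusted p = 0.0159). Itgb2, the beta chain that both pair with, ran from 15.02 to 51.9 CPM with a median of 42.02 and from 9.24 to 27.6 with a median of 19.9. Its change was -0.98 ± 0.21 (adjusted p = 0.00553).

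**Figure D2:**
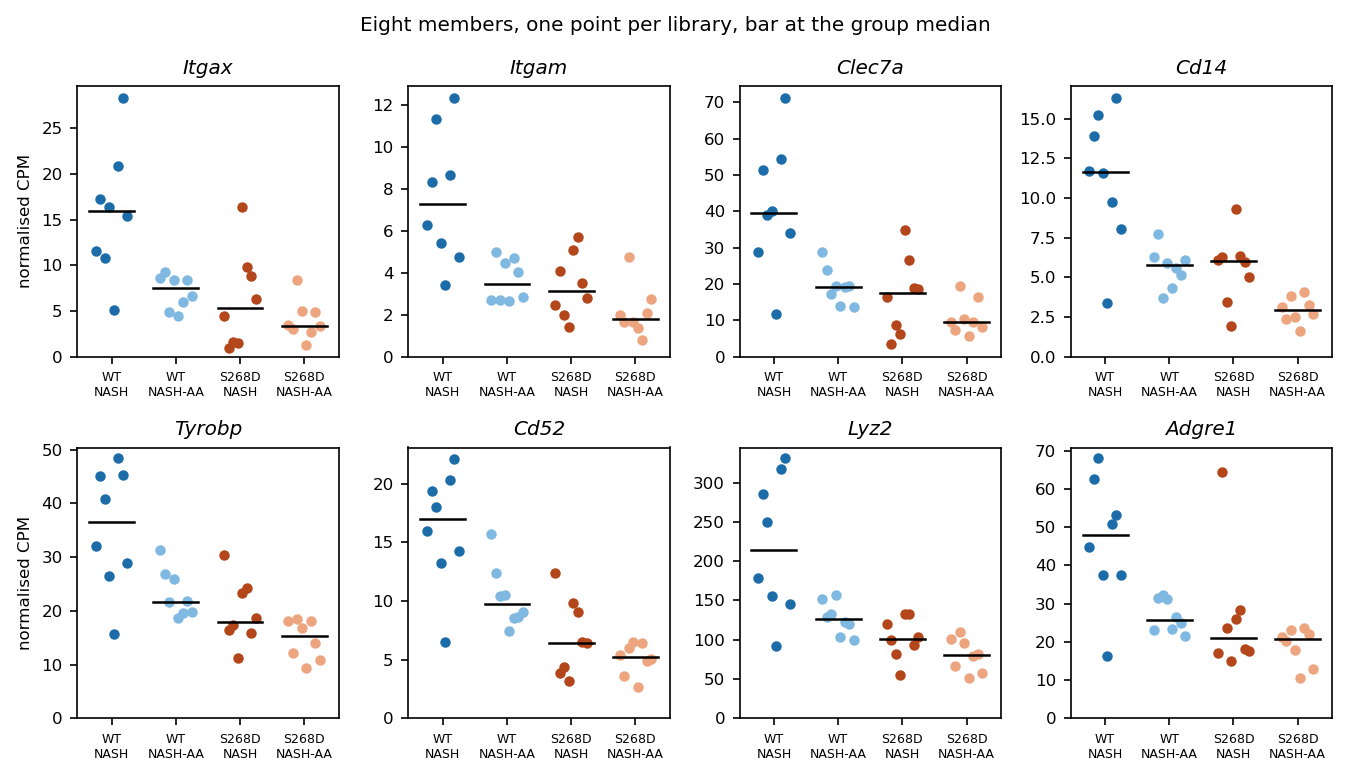
Normalised CPM of 8 members in each library, grouped by genotype (S268D stands for FAAH S268D) and diet, with a bar at the group median and points set by replicate number from left to right. Itgax and Clec7a spread widely in the mutant on NASH, the high Adgre1 point in that group is replicate 2 at 64.5 CPM, and Tyrobp and Cd52 do not overlap between the genotypes on NASH-AA.

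Of the 6 adaptors and cytoplasmic signalling proteins, 5 were lower. Tyrobp, the DAP12 adaptor, ran from 15.7 to 48.4 CPM in WT NASH with a median of 36.4 and from 11.2 to 30.4 with a median of 17.99 in the mutant. Of the 8 WT libraries, 5 lay above every mutant library, and the change was -0.88 ± 0.20 (adjusted p = 0.00678). Laptm5, a lysosomal membrane protein of blood cells, ran from 36.6 to 126.8 CPM with a median of 91.1 and from 28.3 to 69.2 with a median of 47.9, a change of -0.89 ± 0.20 (adjusted p = 0.00657). Aif1 (IBA1, an actin-binding protein of macrophages) changed by -0.73 ± 0.16 (adjusted p = 0.00686), from a median of 9.90 CPM to 5.63. The other called members were Fcer1g, which carries the signal of IgG and lectin receptors, at -0.88 ± 0.18, and Coro1a, an actin regulator, at -0.82 ± 0.20. Lst1 was not called (-0.43 ± 0.20, adjusted p = 0.182). It ran from 1.07 to 3.07 CPM in WT NASH and from 0.965 to 4.97 in the mutant, where the top value was the shallow replicate 1 at 18 counts.

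The phagocyte oxidase was lower in all 4 of its measured subunits. Cybb, the electron-carrying membrane subunit, ran from 20.99 to 73.9 CPM in WT NASH with a median of 54.3 and from 15.1 to 43.1 with a median of 24.03 in the mutant, a change of -0.93 ± 0.21 (adjusted p = 0.00769). Cyba, its membrane partner, ran from 11.9 to 34.4 CPM with a median of 26.8 and from 8.69 to 20.99 with a median of 13.6. In Cyba, 7 of 8 WT libraries stood above every mutant library, and the change was -0.89 ± 0.17 (adjusted p = 0.00277). Ncf4, a cytosolic subunit, separated likewise in 7 of 8, from 2.26 to 6.90 CPM with a median of 4.89 against 1.15 to 3.52 with a median of 2.17. It fell by 1.09 ± 0.21 on the log2 scale (adjusted p = 0.00304). Ncf1, the cytosolic organiser subunit, changed least of the 4, by -0.62 ± 0.16 (adjusted p = 0.0132).

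Among 8 lysosomal, granule and secreted proteins, 5 were lower. Mpeg1, a pore-forming protein of the phagosome, had the steadiest level in WT NASH, from 192.8 to 336.7 CPM with a median of 274.9. In the mutant it ran from 118.3 to 230.6 with a median of 174.2, and the change was -0.67 ± 0.13 (adjusted p = 0.00366). Lyz2 ran from 91.6 to 330.7 CPM with a median of 213.8 in WT NASH and from 54.7 to 133.3 with a median of 101.4 in the mutant, a change of -1.03 ± 0.22 (adjusted p = 0.00463). Cd68, whose upstream bases are printed above, ran from 23.3 to 72.3 CPM with a median of 51.0 and from 14.8 to 35.7 with a median of 24.96. In Cd68 7 of 8 WT libraries stood above every mutant library, and the change was -1.05 ± 0.20 (adjusted p = 0.0029). The calprotectin pair is made by neutrophils and monocytes: S100a9 was called at -1.12 ± 0.35 (adjusted p = 0.0379) and S100a8 was not at -1.15 ± 0.41 (adjusted p = 0.0735). Both were sparse, with S100a8 at 5 to 35 counts a library in the mutant, and of the neutrophil markers Csf3r was lower as well (-0.62 ± 0.19, adjusted p = 0.0333) and Mmp9 was not called (-0.73 ± 0.32, adjusted p = 0.151). The share of neutrophils in the S100a9 difference was not tested. Plac8 was called at -0.57 ± 0.18, and Emilin2 (-0.43 ± 0.22) and the lectin Chil3 (-0.68 ± 0.49), which held 0 to 28 counts a library in the mutant, were not.

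Of 5 leukocyte surface and lineage genes, 4 were lower. Cd52, a short anchored glycoprotein of leukocytes, had the smallest p of the 37 genes. It ran from 6.504 to 22.1 CPM with a median of 17.02 in WT NASH and from 3.17 to 12.4 with a median of 6.44 in the mutant. In Cd52 all WT libraries but 1 lay above every mutant library (7 of 8), and the change was -1.35 ± 0.24 (adjusted p = 0.00102). Ptprc, the pan-leukocyte phosphatase CD45, ran from 12.1 to 35.04 CPM with a median of 28.9 and from 6.30 to 21.1 with a median of 14.97, a change of -0.91 ± 0.21 (adjusted p = 0.00746). Spi1, which codes for PU.1, ran from 9.92 to 27.7 CPM with a median of 23.1 and from 8.36 to 19.9 with a median of 12.1, a change of -0.80 ± 0.18 (adjusted p = 0.00678). The tetraspanin Cd53 was called at -0.88 ± 0.21. Ly6c2 was the member nearest to no difference, from 0.857 to 2.09 CPM in WT NASH and 0.474 to 1.93 in the mutant (-0.39 ± 0.28, adjusted p = 0.41).

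**Figure D3:**
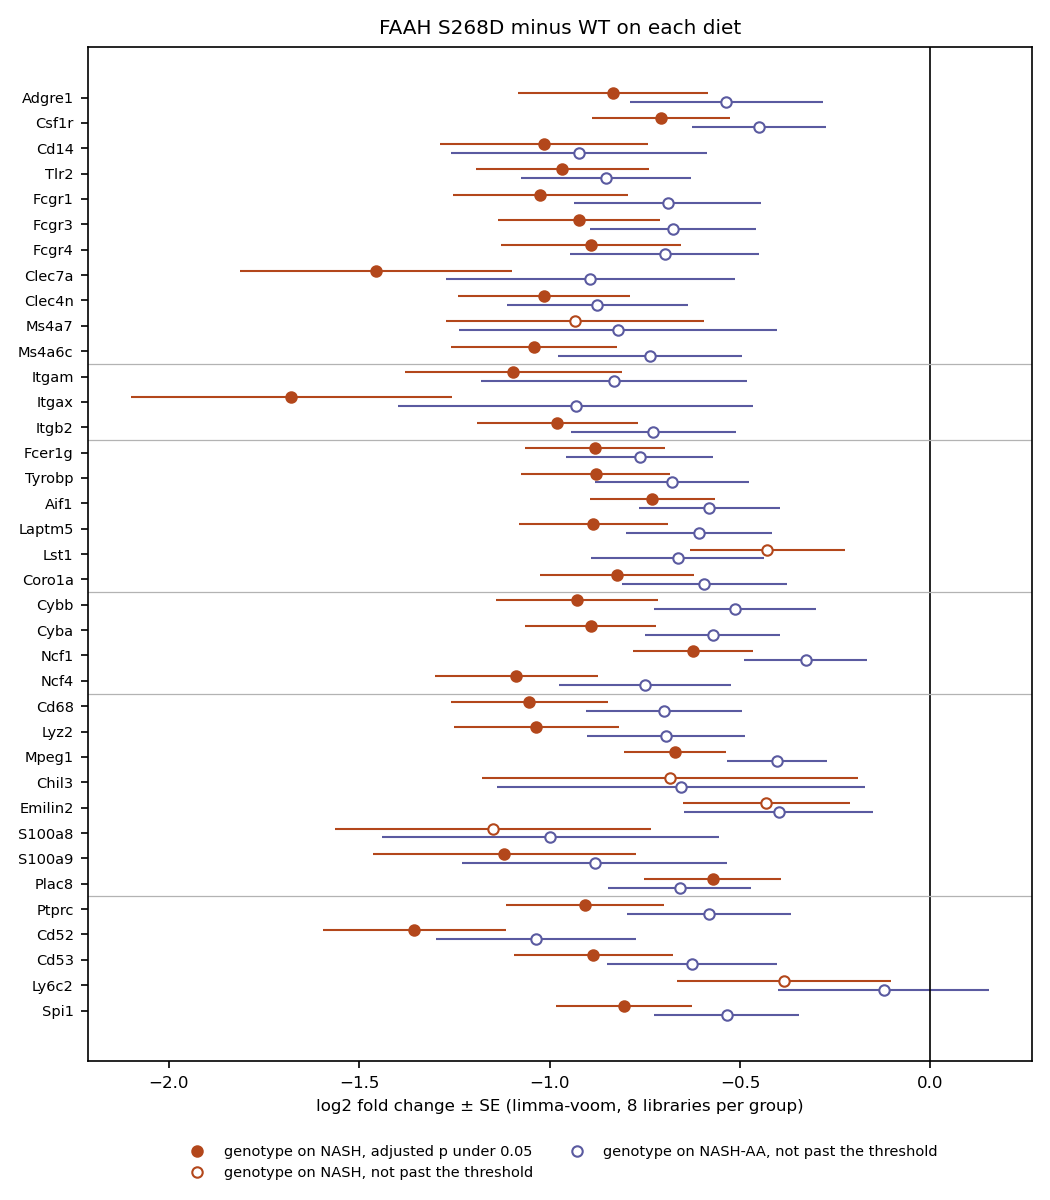
Log2 fold change ± SE of FAAH S268D minus WT for each member, on NASH (orange) and NASH-AA (blue), with filled points past adjusted p under 0.05. Every point lies below 0, with 31 of 37 filled on NASH and 0 of 37 on NASH-AA.

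The same genotypes were then compared on the NASH-AA diet. There 0 of 37 members were called by limma-voom over all 32 libraries, although all 37 fold changes were negative (49.4% of all genes were) with a median of -0.68. In that fit 32 of 37 members had an unadjusted p under 0.05, against 2317 of the 14903 genes tested. Among all genes 0.309% were called lower and 0.349% higher. The lowest adjusted p were those of Fcer1g (-0.76 ± 0.19, adjusted p = 0.0553) and Cd52 (-1.03 ± 0.26, adjusted p = 0.0592). In 8 of 37 members every FAAH S268D library lay below every WT library, where 0.416% of all genes separated in this way. These 8 were Fcgr3, Itgb2, Fcer1g, Tyrobp, Aif1, Laptm5, Plac8 and Cd52, chosen after their values were seen. Fcer1g ran from 14.9 to 27.01 CPM with a median of 17.5 in WT NASH-AA and from 7.39 to 13.9 with a median of 11.5 in FAAH S268D NASH-AA. Tyrobp ran from 18.6 to 31.2 CPM with a median of 21.7 and from 9.31 to 18.4 with a median of 15.4. Cd52 ran from 7.49 to 15.7 CPM with a median of 9.73 and from 2.64 to 6.52 with a median of 5.25.

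The count on NASH-AA also changed with the fit. With the 16 libraries of the 2 groups fitted alone, 26 of 37 members were called lower at an unchanged median of -0.68, with Cd52 at an adjusted p of 0.00584 and Fcer1g at 0.00714. The share of all genes called lower was 2.48% in that fit. Sample quality weights gave 25 (2.80% of all genes lower) and 1 weight per group gave 10 (1.15%). Leaving out WT NASH replicate 5, a library outside this comparison, gave 13 (0.725%). Leaving out FAAH S268D NASH replicate 5, likewise outside it, gave 2 (0.336%). Leaving out FAAH S268D NASH replicate 4, WT NASH-AA replicate 3 or FAAH S268D NASH-AA replicate 3 gave 1 each (0.329%, 0.382% and 0.322%). A block for the replicate number gave 2 (0.195%) and one for the library-number range 3 (0.302%). Within the libraries numbered 1 to 16 and 17 to 32 alone, 0 were called (0.0671% and 0.121%), at medians of -0.61 and -0.74. The median coefficient of variation over the 37 genes was 18.2% in WT NASH-AA and 25.4% in FAAH S268D NASH-AA, against 31.9% in WT NASH and 35.7% in FAAH S268D NASH.

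**Figure D4:**
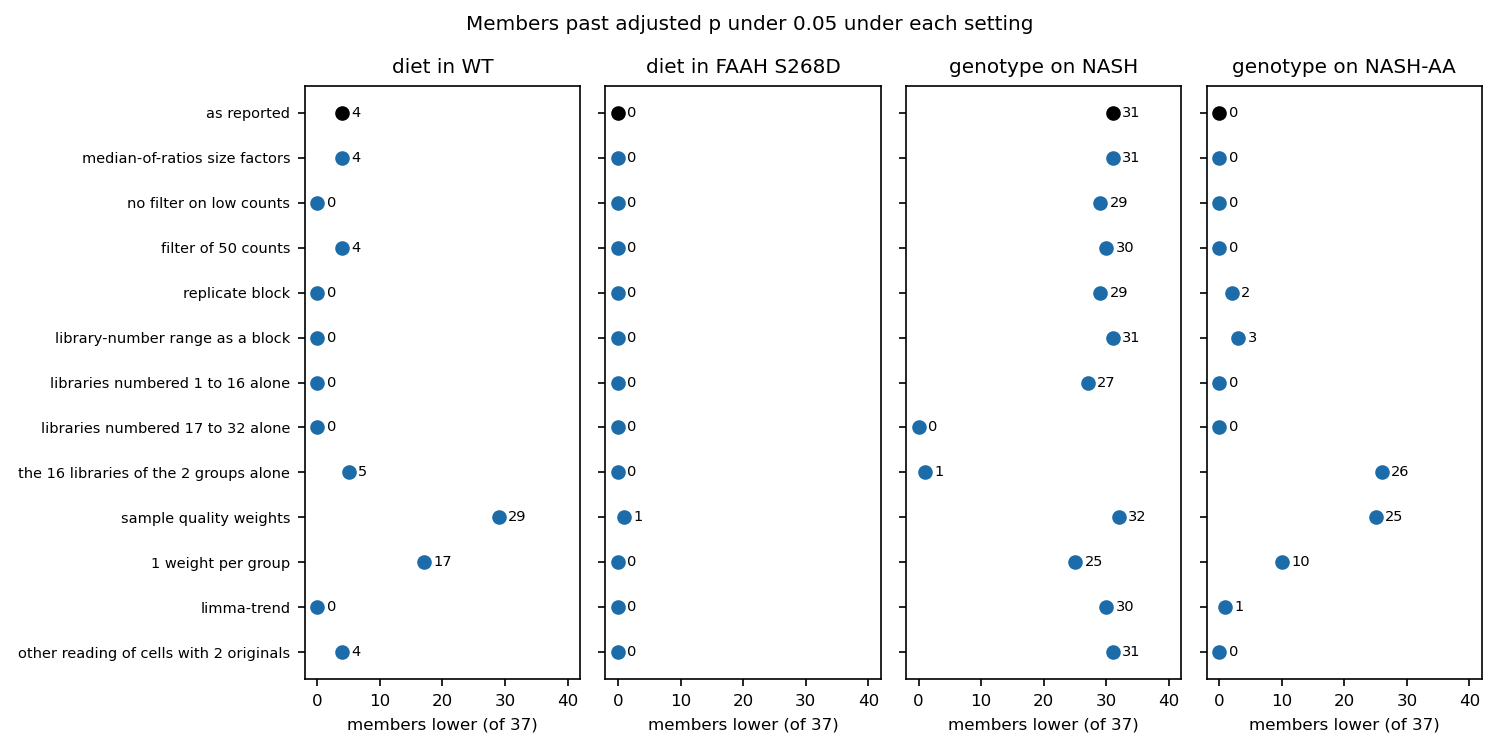
Number of members called lower (horizontal axis) in the 4 comparisons between 2 groups (panels) under each way of fitting (vertical axis), with the reported fit in black. The count on NASH falls from 31 to 1 when the 2 groups are fitted alone, and on NASH-AA it rises from 0 to 26.

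The diet was compared within each genotype. In WT, 4 of 37 members were lower on NASH-AA than on NASH and 0 were higher, where 2.97% of all genes were called lower and 1.44% higher. These were the integrin chain Itgam (-0.97 ± 0.27, adjusted p = 0.0378), the lipopolysaccharide receptor Cd14 (-0.91 ± 0.26, adjusted p = 0.0423), Spi1 (-0.59 ± 0.17, adjusted p = 0.044) and Aif1 (-0.59 ± 0.16, adjusted p = 0.0345). All 37 fold changes were negative, with a median of -0.52, against 48.9% of all genes. Cd14 ran from 3.73 to 7.76 CPM with a median of 5.76 in WT NASH-AA, and 7 of 8 WT NASH libraries lay above all of these, the exception being replicate 5. Itgam ran from 2.66 to 4.99 CPM with a median of 3.46 in WT NASH-AA, Spi1 from 10.6 to 19.6 with a median of 13.4, and Aif1 from 5.29 to 7.63 with a median of 6.43. In no member did the ranges separate (0 of 37, against 0.181% of all genes).

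Other members had diet fold changes in WT as wide as these without passing the threshold. Itgax changed by -1.05 ± 0.36 (adjusted p = 0.0761), Clec7a by -0.97 ± 0.33 (adjusted p = 0.076) and Adgre1 by -0.70 ± 0.24 (adjusted p = 0.0768). Itgax ran from 4.504 to 9.24 CPM in WT NASH-AA with a median of 7.50, Clec7a from 13.7 to 28.7 with a median of 19.3 and Adgre1 from 21.4 to 32.3 with a median of 25.6. Tlr2 (-0.09 ± 0.19), Ly6c2 (-0.06 ± 0.26) and Chil3 (-0.06 ± 0.43) were nearest to no difference. The 4 calls were not stable. Without WT NASH replicate 5 the count was 29, at a median of -0.69, and 9.86% of all genes were called lower. Leaving out FAAH S268D NASH replicate 4 or 5 gave 8, with 3.98% and 4.79% of all genes lower. Counts of 0 to 2 followed on leaving out any 1 of the other 7 WT NASH libraries, or WT NASH-AA replicate 3, 4, 5, 6, 7 or 8. Between 0.0805% and 2.78% of all genes were called lower in those fits. Within either range of library numbers 0 members were called, at medians of -0.48 and -0.51, with 0% and 0.584% of all genes lower.

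In FAAH S268D, 0 of 37 members were called for diet, and 0.0671% of all genes were called lower and 0.0268% higher. An unadjusted limma-voom p under 0.05 was found in 2 of 37 members and in 1843 of the 14903 genes tested. Limma-trend also called 0 members (0.201% of all genes lower), and sample quality weights called 1 (4.08%). Of the 37 fold changes 34 were negative, with a median of -0.25. Without FAAH S268D NASH replicate 4 the median was -0.40, with 36 of 37 negative, 13 at an unadjusted p under 0.05 and still 0 called (0.0604% of all genes lower). In fits without single libraries, unadjusted counts were made for the members and not over all genes. Without FAAH S268D NASH-AA replicate 5 the median was -0.16 with 0 members at an unadjusted p under 0.05, and without FAAH S268D NASH replicate 5 or 6 it was -0.16 as well. Cd14 had the widest, -0.82 ± 0.35 (adjusted p = 0.323), and ran from 1.66 to 4.10 CPM with a median of 2.92 in FAAH S268D NASH-AA. Itgam came next but one at -0.71 ± 0.36 (adjusted p = 0.436), and ran from 0.780 to 4.76 CPM with a median of 1.82. Itgax, which differed most between genotypes on the NASH diet, changed by -0.30 ± 0.52. No member separated between the diets (0 of 37, where 0.0403% of all genes did). The 2 ranges of library numbers differed here: the median was 0.01 with 16 of 37 negative in libraries 1 to 16, and -0.52 with 37 of 37 negative in libraries 17 to 32. In each range 0 members were called, with 0% and 1.67% of all genes lower.

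**Figure D5:**
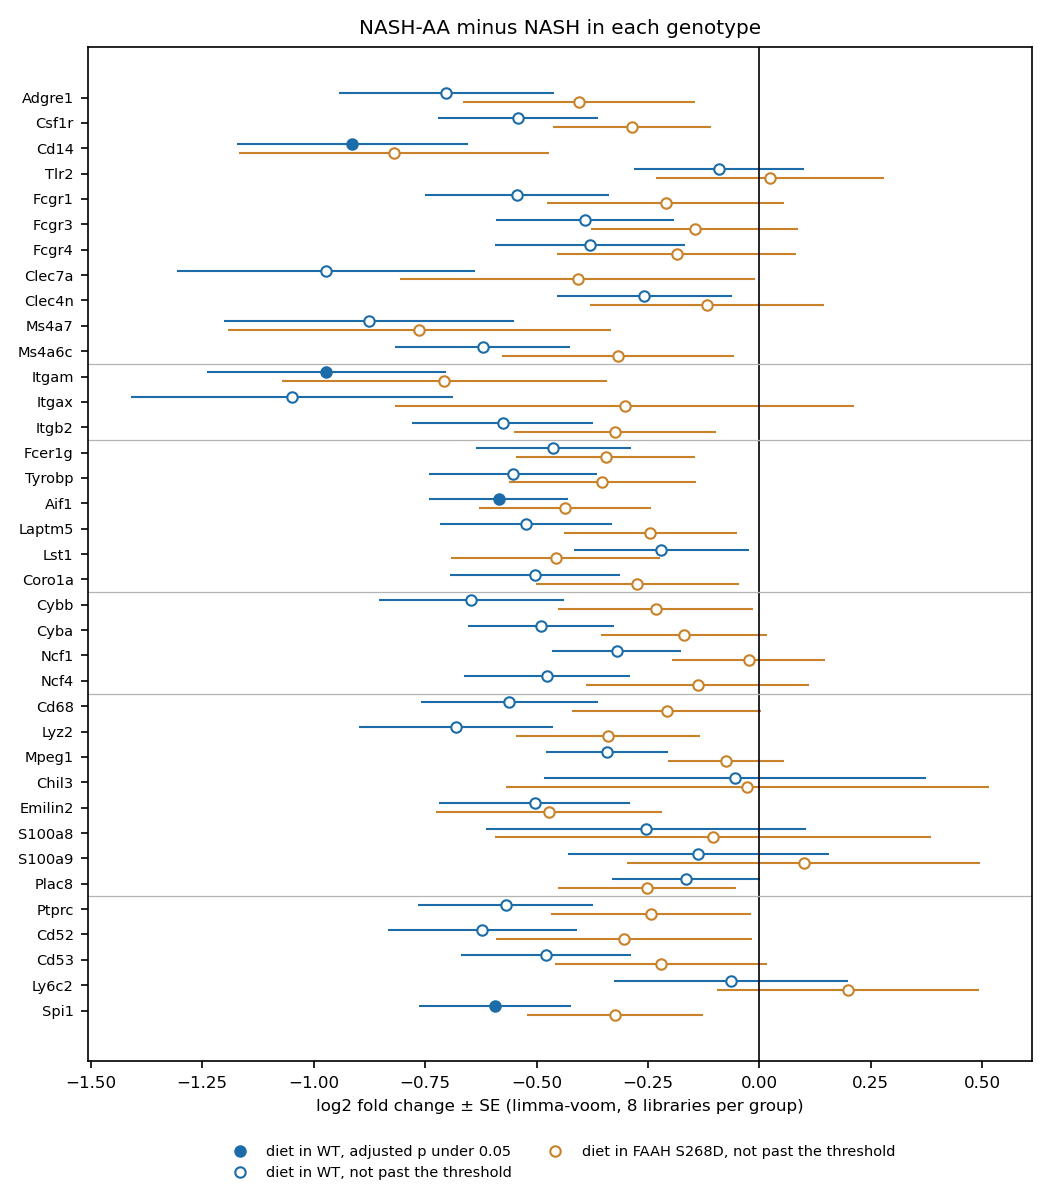
Log2 fold change ± SE of NASH-AA minus NASH for each member in WT (blue) and FAAH S268D (orange), with filled points past adjusted p under 0.05. The 4 filled points, Cd14, Itgam, Aif1 and Spi1, are all in WT, and the 3 positive points are all in FAAH S268D.

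Whether the diet acted differently in the 2 genotypes was tested as an interaction, and limma-voom called 0 of 37 members. Among all genes 0% were called lower and 0% higher, with 627 at an unadjusted p under 0.05 and 0 of the members among them. The members' interaction terms had a median of 0.26, and 35 of 37 were positive, where a positive term means that the diet fold change in FAAH S268D lay above the one in WT. The median was 0.42 without WT NASH replicate 5, with 3 members at an unadjusted p under 0.05, a count not made over all genes there. It was 0.12 without FAAH S268D NASH replicate 4 and 0.17 without WT NASH replicate 7. The lowest adjusted p was 0.906. Limma-trend called 0 as well, and the median was 0.52 in libraries 1 to 16 and -0.04 in libraries 17 to 32, where 26 of 37 terms were negative. These 2 ranges hold unequal parts of the groups, and the cause of the difference between them was not tested.

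Partner genes of the same pathways were read alongside on the NASH diet, in the fit over all 32 libraries. In that fit 6.29% of all genes were called lower and 2.89% higher. With the 2 groups fitted alone 0.302% of all genes were called lower, and the partner genes were not read there. Of 13 genes of ITAM and Fc receptor signalling 11 were lower in FAAH S268D, with Ptpn6, a phosphatase that restrains it, at -0.39 ± 0.08, Fgr, a SRC-family kinase, at -0.93 ± 0.19 and the kinase Btk at -0.83 ± 0.18. The inhibitory receptor Fcgr2b was not called, at -0.06 ± 0.12, and sinusoidal endothelium makes it as well. All 5 tested partners of the oxidase and the beta 2 integrins were lower, among them Icam1, a ligand of these integrins, at -0.80 ± 0.15 and the integrin activator Fermt3 at -0.87 ± 0.17. Of 11 pattern recognition genes 6 were lower, all of them Toll-like receptors, with Tlr13 at -1.25 ± 0.26 and Tlr1 at -1.12 ± 0.26, while the shared adaptor Myd88 (-0.19 ± 0.07) and Lbp, a hepatocyte product (-0.12 ± 0.13), were not called. Of 10 tested genes of monocyte recruitment and growth 6 were lower, with the chemokine Ccl2 at -1.60 ± 0.36, the growth factor Csf1 at -0.45 ± 0.10 and the receptor chain Csf2rb at -0.82 ± 0.20. The chemokine receptors Ccr2 (-1.04 ± 0.34, adjusted p = 0.0508) and Cx3cr1 (-0.89 ± 0.34, adjusted p = 0.0895) of monocytes were not called. Among 8 myeloid transcription factors 2 were lower, Runx1 at -0.77 ± 0.20 and Irf8 at -0.71 ± 0.19.

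Markers of other macrophage states and cell types moved unevenly in the same comparison and the same fit, where 6.29% of all genes were called lower and 2.89% higher. They too were not read with the 2 groups fitted alone. Lipid-associated macrophage markers were lower in 6 of 9, with Mmp12 at -2.47 ± 0.57, and their summed level ran from 177 to 928 CPM in WT NASH and from 92.7 to 634 in FAAH S268D NASH. Kupffer cell markers were lower in 4 of 11, the complement chains C1qa, C1qb and C1qc with Cd5l, and 10 of 11 were negative around a median of -0.54. Clec4f (-0.32 ± 0.18), Timd4 (-0.07 ± 0.46) and Vsig4 (-0.54 ± 0.26) were among those not called. The summed level of the Kupffer cell markers ran from 536 to 1300 CPM against 469 to 746. Of 10 T and NK cell markers 7 were tested, of which 6 were negative and 1 positive. The 4 called lower were the T cell genes Cd3e, Cd3g, Cd8a (-2.15 ± 0.53) and Trac, and no NK cell marker was called. The summed level of the 10 ran from 4.23 to 12.3 CPM against 3.81 to 7.18. Neutrophil markers were lower in 1 of 2 tested (sums of 5.60 to 16.8 against 3.40 to 9.95) and dendritic cell markers in 1 of 7 (9.76 to 16.8 against 8.62 to 14.8). No B cell, sinusoidal endothelial, stellate or cholangiocyte marker was called (0 of 6, 0 of 6, 0 of 7 and 0 of 4). All 7 stellate markers were nevertheless negative, with a median of -0.39 and a lowest adjusted p of 0.0787 by limma-voom. The B cell markers were positive in 5 of 6 around a median of 0.02, and the medians of the endothelial and cholangiocyte markers were -0.13 and -0.04. Of 11 hepatocyte markers 2 were higher, Ttr at 0.35 ± 0.10 and Ass1 at 0.47 ± 0.15, at sums of 57900 to 84600 CPM against 66200 to 105000. The part of these cell types in the members' differences was not tested.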

How the data were processed

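RNA of whole liver was prepared with TRIzol and sequenced from polyA libraries (Tecan Universal Plus kit), per the labels' protocols. The submitters' processing notes list STAR 2.7.10, UMI-tools 1.1.2 and Trim Galore 0.6.7, with GRCm38 as genome. How genes were counted, on which annotation and on which strand, is not given in the sources used here. The authors deposited 1 table of estimated counts for 55487 genes in 32 libraries, not scaled between libraries. Of its cells, 11.4% carried digit-grouping marks and 0.464% had become clock times. Fixed rules turned these back. Of 1184 member cells, 10 came from times or day fractions and 3 had 2 possible originals, of which the one nearer to the gene's depth-scaled median was taken. Values were rounded to whole numbers. Because of these cells the unit was recorded as other than counts, and limma-voom took the place of a count model.

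Genes with at least the CPM of 10 counts at the median depth in 8 libraries, with a total of 15 counts or more, were kept (14903). TMM factors trimmed 30% of log ratios and 5% of levels. The prior count was 0.5 and limma was 3.58.1 in R 4.3.3. One mean per group was fitted over all 32 libraries. The fit was checked on simulated counts with the same dispersion for every gene and group. That check does not cover groups whose spreads differ, as the spreads of the members did here.

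The members, the lists of other genes and the alternatives were chosen with earlier results of these data known. The genes given in full were the 2 of highest mean CPM in each of 6 roles, those called for diet or interaction, the 4 of smallest p for genotype on NASH, and the 2 widest and 2 narrowest changes there. Other members are given by counts and ranges, and any singled out were chosen after their values were seen. For the full members, the changes in all 4 comparisons are plotted and those a comparison turns on are printed. Of the other lists the genes of smallest p are named, and further ones were chosen after their values were seen. Of the hepatocyte list 1 of 12 symbols was not matched. Positions and exon lengths are from GENCODE M21, and promoter windows are from RefSeq. Pairs of libraries with identical counts numbered 0.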

Additional observations from a re-analysis of the deposited data

Results flagged for a closer look

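Within each of the 4 groups, the highest or lowest of the 8 libraries was flagged when its gap to the nearest library as a share of the group's range was above Dixon's 95% critical value. Over 37 members in 4 groups, 148 sets of values were examined and 8 were flagged. By chance about 5% of such sets are flagged, so the number is close to what chance gives.

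Adgre1 was high in FAAH S268D NASH replicate 2, at 64.5 CPM with the next library at 28.3. In FAAH S268D NASH replicate 1, the shallowest library, Clec4n stood at 6.08 CPM above a next value of 3.43, and Lst1 at 4.97 above 2.75. WT NASH replicate 5 was flagged as low in Tlr2, at 4.12 CPM with the next at 8.86, and in Cyba, at 11.9 with the next at 23.9. In WT NASH-AA, Coro1a was high in replicate 2, at 16.8 CPM above 12.7, and Ncf4 was low in replicate 5, at 2.37 below 3.25. S100a8 was high in FAAH S268D NASH-AA replicate 3, at 1.87 CPM above 0.743.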

How the results depend on the processing

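The members' median fold change kept its sign under every alternative except for diet in FAAH S268D (0.01 in libraries 1 to 16) and for the interaction (-0.04 in libraries 17 to 32), and 0 called fold changes of single members turned sign. Members called for diet in WT (4 as reported) numbered 0 with no filter on low counts, with the replicate block, with the library-number range as a block, in libraries 1 to 16 alone, in libraries 17 to 32 alone and by limma-trend (0% to 1.6% of all genes lower). They numbered 29 with sample quality weights and 17 with 1 weight per group, where 14.5% and 6.80% of all genes were called lower against 2.97% as reported. They numbered 5 in the 2 groups alone (4.54% of all genes lower), 2 of the reported 4 among them, and 0 to 29 on leaving out 1 library. Members called for genotype on NASH (31) numbered 0 in libraries 17 to 32 alone (0.0604% of all genes lower). In the 2 groups alone there was 1 (0.302%), and in libraries 1 to 16 alone there were 27 (4.39%). Leaving out 1 library gave 22 to 34. Members called for genotype on NASH-AA (0) numbered 2 with the replicate block, 3 with the range as a block, 26 in the 2 groups alone, 25 with sample quality weights, 10 with 1 weight per group, 1 by limma-trend (0.248% of all genes lower) and 0 to 13 on leaving out 1 library. Members called for diet in FAAH S268D (0) numbered 1 with sample quality weights (4.08% of all genes lower). The interaction gave 0 throughout. The cause of these moves was not tested.

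Whether the replicate numbers pair the samples could not be decided. Correlations of same-numbered libraries ran from -0.383 to 0.332, and at most 3 of 8 pairs passed 0.1. In 7 of 32 comparisons a library matched best with its own number, and since each match was picked from 8 libraries, some arise by chance. Under the replicate block, 29 members were called for genotype on NASH (4.41% of all genes lower), and over all genes the count for diet in WT went from 657 to 17. Without a filter the median fold change of all genes for genotype on NASH was 0.16, against -0.91 for the members. Depth limits Chil3, S100a8, S100a9 and Ly6c2 most, and 33 of 37 members passed a filter of 50 counts.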

Other observations

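The order of the 4 groups was nearly the same from member to member. All 37 members had their highest mean in WT NASH and 35 had their lowest in FAAH S268D NASH-AA. In 32 the means descended from WT NASH through WT NASH-AA and FAAH S268D NASH to FAAH S268D NASH-AA. The exceptions were Tlr2, Ms4a7, Lst1, Emilin2 and Ly6c2. Since the groups are shared between comparisons, these orders are a description. They were neither tested nor counted over all genes.

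The spread within a group differed between members. In WT NASH the coefficient of variation ran from 16.2% for Mpeg1 to 83.5% for Chil3, and in FAAH S268D NASH from 22.5% for Fcgr4 to 85.0% for Itgax. The median over all genes tested was 14.2% and 21.4% in these groups, and 13.8% in both NASH-AA groups.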
